A study of Mus musculus with 6 samples.

Results

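The p53 target genes described here are 10 established targets of the transcription factor p53 that lie outside the TNF receptor family, namely Cdkn1a, Mdm2, Bax, Bbc3, Pmaip1, Phlda3, Ccng1, Trp53inp1, Sesn1 and Zmat3. They were taken by gene symbol from 18046 genes listed in each library, and all 10 were found and were tested. Naive CD4+ T cells from spleens of C57BL/6 mice, aged 3 weeks in the labels, had spent 3 days in culture with CD3 and CD28 antibodies and a T helper 1 (Th1) polarizing mix. The 3 LPC libraries came from cells given 20 µM LPC during that time, and the 3 vehicle libraries from cells given vehicle alone. The labels do not spell out LPC or name the vehicle. Nor do they tie replicates to separate mice or cultures. The p-values therefore speak of library-to-library spread alone, and that spread may be technical.

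Expression was given as FPKM, fragments per kilobase of transcript relative to the mapped reads, which is scaled for gene length and for each library's reads. Read totals are not given, so the counting error behind a value is unknown. A change is the difference of mean log2(FPKM + 1), LPC minus vehicle, and it understates the fold of low genes. Genes were said to rise or fall at an adjusted p under 0.05 in limma, with Benjamini-Hochberg adjustment over 10138 genes with 1 FPKM or more in 3 or more libraries. LPC replicate 3 lay farthest out on the first principal component (21.10, against 10.84 and 3.03 for the other LPC libraries and -15.76 to -8.43 for vehicle libraries). Across tested genes the log2 change correlated with the GC share of transcripts (r = 0.24) and with log2 transcript length (r = -0.22). Of 9 T cell markers 8 had a row, with summed levels of 1843 to 1982 FPKM in LPC libraries and 1925 to 1993 FPKM in vehicle libraries, and none of the 8 changed. Cd4 had 144 to 177 FPKM in LPC libraries and 185 to 205 FPKM in vehicle libraries, while Cd8a was at most 0.33 FPKM. The other CD8 marker, Cd8b1, was present, with 10.57 to 12.55 FPKM in LPC libraries and 13.35 to 14.19 FPKM in vehicle libraries, and it did not pass. The part of CD8 T cells in the results was not tested. Summed levels stayed at or under 1.09 FPKM in every library for the B cell (7 of 7 with a row), macrophage, monocyte and granulocyte (7 of 8) and erythroid (4 of 6) markers. Of 4 natural killer cell markers Ncr1 and Klra8 were at 0 in every library, while Klrk1, which activated T cells can also express, rose to 2.35 FPKM with LPC, against 1.33 FPKM with vehicle (log2 change 0.52, adjusted p = 0.00657).

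The p53 protein is held at a low level by the ubiquitin ligase Mdm2 and its partner Mdm4, and stress such as DNA damage releases it. It then binds DNA and raises genes that stop the cell cycle, start cell death, adjust metabolism and feed back on p53 itself. In dividing T cells these genes are known to set limits on clonal expansion and survival.

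Among the target genes, Cdkn1a, Phlda3 and Bax rose with LPC and Trp53inp1 fell. Phlda3, whose product restrains the kinase Akt, had the largest log2 change of the 10 (0.75), followed by the cell cycle inhibitor gene Cdkn1a (0.52) and the death effector gene Bax (0.43). Trp53inp1, which encodes a stress-induced nuclear protein, had a log2 change of -0.36. Mdm2, Ccng1, Bbc3, Pmaip1, Sesn1 and Zmat3 did not pass. The 4 changed genes among 10 stood beside a background of 13.7% of all tested genes, with 3 higher against a background of 5.82% and 1 lower against 7.91%. Members and lists were chosen with earlier results of these data known, so shares beside the background describe the lists and test nothing. For 5 of the 10 the values of both groups stood apart without overlap, against 34.5% of all tested genes, and LPC libraries were the higher ones for 4 of these, against 13.7%. In bulk RNA, fewer cells of a type and less RNA per cell cannot be told apart. The median log2 change of the 10 was 0.06, beside -0.04 over all tested genes. None changed over 2-fold, which 0.197% of tested genes did. The count of changed members was 2, Cdkn1a and Phlda3, when any 1 of LPC replicate 1, vehicle replicate 1 or vehicle replicate 2 was left out, and also with no filter on low values. Over all genes 590 rose and 802 fell, and after median centring 646 rose and 571 fell.

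**Figure D1:**
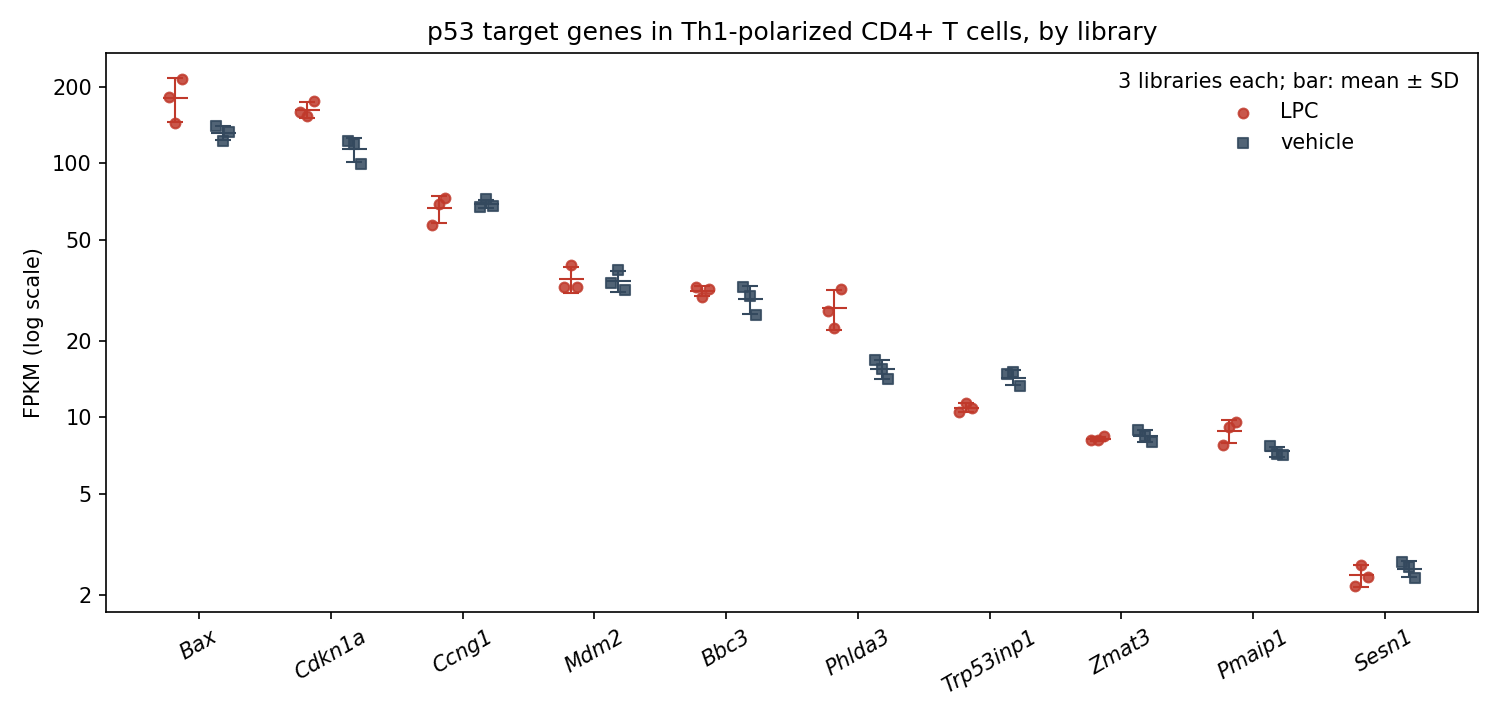
FPKM of the 10 p53 target genes (log axis) in each library, with LPC libraries as circles to the left of vehicle libraries as squares, and bars for the mean ± SD (n = 3 each). Genes run from the highest to the lowest vehicle mean, and the groups stand apart for Cdkn1a, Bax, Phlda3, Pmaip1 and Trp53inp1.

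Cdkn1a encodes p21, which binds and blocks cyclin-dependent kinases and is the classical arrest gene of the p53 response. Its level was 159, 154 and 175 FPKM in LPC replicates 1 to 3, against 123, 119 and 99.1 FPKM in vehicle replicates 1 to 3. Each LPC library lay above each vehicle library, and the gap between the nearest libraries of both groups was wider than the range within either group. The mean was 163 ± 11.3 FPKM with LPC and 114 ± 12.7 FPKM with vehicle (SD, n = 3 each; log2 change 0.52, SE 0.10, 95% interval 0.30 to 0.73, limma adjusted p = 0.00673). The rise passed in all 13 alternatives to the processing, with log2 changes of 0.42 to 0.57. The highest adjusted p was 0.0474, with no filter on low values. Without LPC replicate 3 the log2 change was 0.46 (adjusted p = 0.00955). Cdkn1a stood at the 94.6th percentile of mean level among tested genes. The gene (NCBI gene 12575) lies on chromosome 17 of GRCm38 at 29090979 to 29100722, and GENCODE places an uncharacterised transcript on the opposite strand across it. The strand setting of the read counting is not given in the sources used here, so reads of the pair cannot be told apart.

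Mdm2 and Ccng1 encode proteins that feed back on p53. Mdm2, the ligase that marks p53 for destruction, had 32.7, 39.7 and 32.6 FPKM in LPC replicates 1 to 3, against 33.7, 38.03 and 31.6 FPKM in vehicle replicates 1 to 3. The groups overlapped, and replicate 2 was the highest library in both. The log2 change was 0.02 (95% interval -0.20 to 0.24, limma adjusted p = 0.915). Ccng1 encodes cyclin G1, which brings a phosphatase to Mdm2. It had 57.4, 69.2 and 72.9 FPKM in LPC replicates 1 to 3, against 67.3, 72.3 and 68.1 FPKM in vehicle replicates 1 to 3 (log2 change -0.06, interval -0.28 to 0.15, adjusted p = 0.705). LPC replicate 1 was the lowest of the 6 libraries for Ccng1 and LPC replicate 3 the highest, so the LPC group spanned the vehicle group.

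The start regions of these genes are shown because p53 is known to act by binding DNA near the genes it controls. RefSeq windows of GRCm38.p6 from 250 bases before to 50 bases after a transcript start were at hand for 7 of the 10 genes, in 11 windows. They were searched on both strands for the p53 consensus site, a pair of 10-base half-sites without a spacer that reads the same on both strands, with its 4 fixed C and G bases required. The cutoff of 3 mismatches was chosen after the matches were seen. Cdkn1a and Ccng1 held a site with 1 mismatch, and 0.067% of all 32851 windows held one with up to 1. Bbc3 and Sesn1 held one with 3 mismatches, and 1.38% of all windows held one with up to 3. The sites follow, 5′ to 3′ on the strand of the gene, with bases that match the consensus in capitals.
Cdkn1a: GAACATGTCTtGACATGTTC
Ccng1: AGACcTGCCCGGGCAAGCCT
Bbc3: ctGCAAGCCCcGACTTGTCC
Sesn1: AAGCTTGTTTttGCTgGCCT
The Cdkn1a site lies at chr17:29090928-29090947, beginning 51 bases before the upstream one of the gene's pair of listed starts, and the Ccng1 site at chr11:40755462-40755481, beginning 195 bases before the start. The Bbc3 site lies at chr7:16309486-16309505 and the Sesn1 site at chr10:41887266-41887285. The whole windows of the closest matches are Cdkn1a, plus strand, chr17:29090729-29091028, and Ccng1, minus strand, chr11:40755237-40755536, with the site in capitals.
Cdkn1a window: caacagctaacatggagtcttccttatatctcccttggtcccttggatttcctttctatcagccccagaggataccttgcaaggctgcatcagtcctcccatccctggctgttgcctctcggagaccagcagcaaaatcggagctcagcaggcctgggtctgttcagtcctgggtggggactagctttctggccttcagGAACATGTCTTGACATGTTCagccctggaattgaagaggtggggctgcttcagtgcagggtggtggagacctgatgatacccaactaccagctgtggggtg
Ccng1 window: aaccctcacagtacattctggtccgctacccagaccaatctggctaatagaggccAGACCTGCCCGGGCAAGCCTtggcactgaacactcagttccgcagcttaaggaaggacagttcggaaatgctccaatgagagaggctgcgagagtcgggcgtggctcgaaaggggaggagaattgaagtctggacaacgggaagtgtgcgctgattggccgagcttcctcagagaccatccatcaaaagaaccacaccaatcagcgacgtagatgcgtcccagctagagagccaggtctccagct
These are matches of letters, and no binding was measured. Of the pair with 1 mismatch, Cdkn1a rose with LPC and Ccng1 did not pass. The windows of Bax, Mdm2 and Phlda3 and the further windows of Cdkn1a, Bbc3 and Sesn1 held no site with up to 3 mismatches in these 300 bases. Sites with a spacer and sites outside the windows, such as those in introns, were not searched.

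Bax, Bbc3 and Pmaip1 act in mitochondrial cell death. Bax encodes a protein that opens pores in the outer mitochondrial membrane. It had 182, 145 and 215 FPKM in LPC replicates 1 to 3, against 141, 123 and 133 FPKM in vehicle replicates 1 to 3. Every LPC library was higher, but LPC replicate 2 exceeded vehicle replicate 1 by little, and the LPC libraries varied more among themselves (coefficient of variation 19.6%, against 6.73% for vehicle). The mean was 181 ± 35.4 FPKM with LPC and 132 ± 8.88 FPKM with vehicle (SD, n = 3 each), a log2 change of 0.43 with an SE of 0.12 (limma adjusted p = 0.0361). Leaving out any single library except LPC replicate 2 lost the call. The adjusted p was 0.113 without LPC replicate 1, 0.0766 without LPC replicate 3, and 0.0763, 0.114 and 0.0588 when vehicle replicate 1, 2 or 3 was left out, with log2 changes of 0.30 to 0.48. It was 0.146 with no filter on low values and 0.0737 with median centring. Bax transcripts are short and rich in GC (median 801 bases and 59.2%). After removal of the trends with GC share and length the log2 change was 0.34 (adjusted p = 0.0347). Bax (NCBI gene 12028) lies on chromosome 7 of GRCm38 at 45461695 to 45466903, where GENCODE places Gm45808, a protein-coding gene of the same strand that has no row of its own in the files, so shared reads cannot be told apart.

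Bbc3 encodes Puma and Pmaip1 encodes Noxa, small proteins that block the survival members of the BCL2 family. Bbc3 had 32.5, 29.7 and 32.0 FPKM in LPC replicates 1 to 3, against 32.5, 29.97 and 25.2 FPKM in vehicle replicates 1 to 3. The groups overlapped, with vehicle replicate 3 alone at the low end (log2 change 0.11, 95% interval -0.11 to 0.32, limma adjusted p = 0.501). Pmaip1 had 7.82, 9.19 and 9.56 FPKM in LPC replicates 1 to 3, against 7.73, 7.18 and 7.12 FPKM in vehicle replicates 1 to 3. The groups did not overlap, yet LPC replicate 1 was barely above vehicle replicate 1, and the gene did not pass (log2 change 0.24, interval 0.02 to 0.45, adjusted p = 0.134). It passed in 1 of the 13 alternatives, removal of the trends with GC share and length (0.35, adjusted p = 0.0222).

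Phlda3 and Sesn1 act on growth signalling. Phlda3 encodes a small protein that competes with Akt for membrane lipids. It had 26.2, 22.5 and 31.9 FPKM in LPC replicates 1 to 3, against 16.8, 15.5 and 14.2 FPKM in vehicle replicates 1 to 3. The lowest LPC library stood well above the highest vehicle library. The mean was 26.8 ± 4.76 FPKM with LPC and 15.5 ± 1.33 FPKM with vehicle (SD, n = 3 each; log2 change 0.75, SE 0.12, 95% interval 0.49 to 1.00, limma adjusted p = 0.00199). It passed in all 13 alternatives, with log2 changes of 0.62 to 0.86, the lowest of them without LPC replicate 3 (adjusted p = 0.00228). The highest adjusted p was 0.0406, with no filter on low values. Its transcript is short and rich in GC (1435 bases and 62.6%, against medians of 2082.5 bases and 50.8% over tested genes), and the log2 change was 0.68 after the trends with GC share and length were removed (adjusted p = 0.00459). Phlda3 (NCBI gene 27280) lies on chromosome 1 of GRCm38 at 135766085 to 135769134 and had 1 listed transcript. Sesn1, whose product curbs the growth kinase mTORC1 when nutrients are short, was the least expressed of the 10. It had 2.17, 2.63 and 2.36 FPKM in LPC replicates 1 to 3, against 2.69, 2.58 and 2.33 FPKM in vehicle replicates 1 to 3, and the groups overlapped (log2 change -0.06, interval -0.28 to 0.15, adjusted p = 0.714). GENCODE places an uncharacterised transcript on the same strand across Sesn1, so shared reads cannot be told apart.

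Trp53inp1 and Zmat3 complete the set. Trp53inp1 encodes a protein of nuclear bodies and autophagic membranes that assists p53. It had 10.5, 11.4 and 10.9 FPKM in LPC replicates 1 to 3, against 14.8, 15.04 and 13.3 FPKM in vehicle replicates 1 to 3. All LPC libraries lay below all vehicle libraries, the reverse of Cdkn1a, Phlda3 and Bax. The mean was 10.9 ± 0.47 FPKM with LPC and 14.4 ± 0.965 FPKM with vehicle (SD, n = 3 each; log2 change -0.36, SE 0.09, 95% interval -0.56 to -0.16, limma adjusted p = 0.0225). The fall missed the threshold when LPC replicate 1 was left out (adjusted p = 0.0753), when vehicle replicate 1 was (0.112), when vehicle replicate 2 was (0.116) and with no filter on low values (0.0578). Its transcripts are long and poor in GC (median 5404 bases and 38.8%), and after removal of those trends the log2 change was -0.21 (adjusted p = 0.0791). Trp53inp1 (NCBI gene 60599) lies on chromosome 4 of GRCm38 at 11156441 to 11174379. Zmat3 encodes an RNA-binding protein that regulates splicing. It had 8.17, 8.12 and 8.43 FPKM in LPC replicates 1 to 3, against 8.90, 8.48 and 8.01 FPKM in vehicle replicates 1 to 3 (log2 change -0.03, interval -0.23 to 0.16, adjusted p = 0.842). Its LPC values spanned the narrowest relative range of the 10 genes (coefficient of variation 2.02%) and lay inside the vehicle range.

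**Figure D2:**
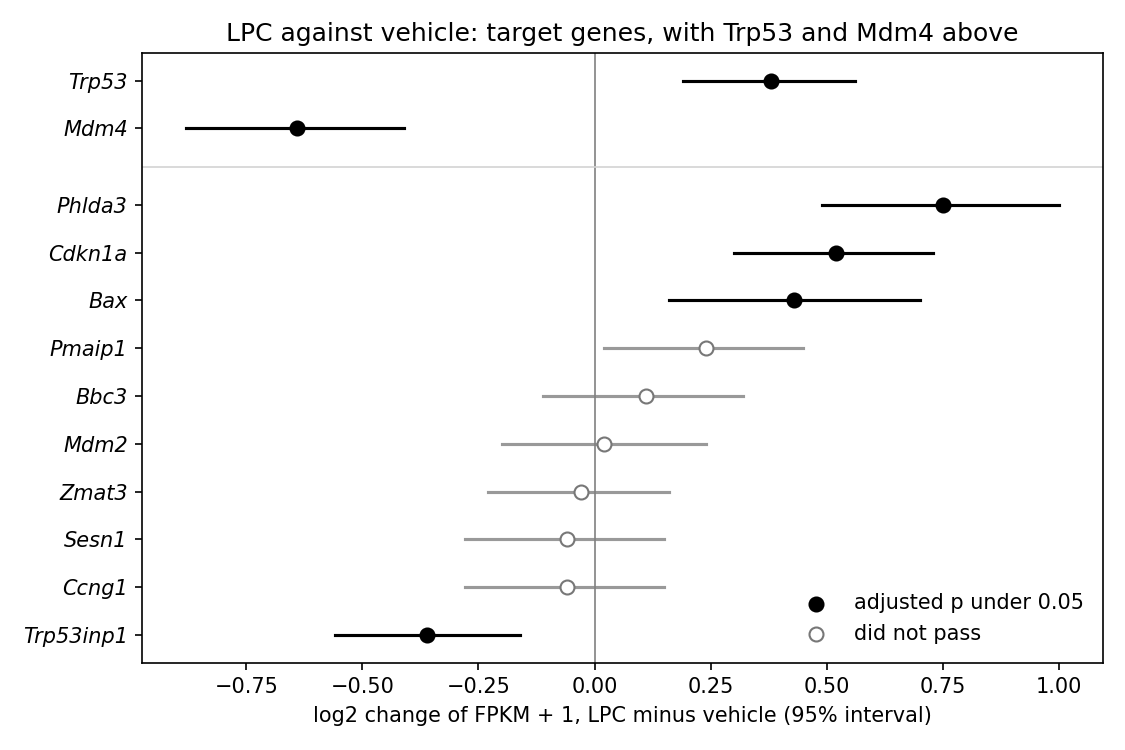
Log2 change of FPKM + 1 (LPC minus vehicle, horizontal axis) for the 10 p53 target genes and, above the line, for Trp53 and Mdm4. Points show the limma estimate with its 95% interval and are filled where the adjusted p was under 0.05, as for Phlda3, Cdkn1a and Bax on the right and Trp53inp1 on the left.

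Upstream of these targets, Trp53 rose and Mdm4 fell with LPC. Trp53, the p53 gene, had 151, 135 and 140 FPKM in LPC replicates 1 to 3, against 113, 107 and 107 FPKM in vehicle replicates 1 to 3. The groups stood apart, with means of 142 ± 8.04 FPKM with LPC and 109 ± 3.24 FPKM with vehicle (SD, n = 3 each), a log2 change of 0.38 with an SE of 0.09 (limma adjusted p = 0.0127). Leaving out vehicle replicate 1 gave an adjusted p of 0.0536, and leaving out vehicle replicate 2 gave 0.069. Mdm4, which encodes an inhibitor of p53 related to Mdm2, had 8.18, 9.26 and 6.97 FPKM in LPC replicates 1 to 3, against 13.3, 14.2 and 12.2 FPKM in vehicle replicates 1 to 3. All LPC libraries were lower than all vehicle libraries (log2 change -0.64, SE 0.11, adjusted p = 0.00304), and the fall passed in all 13 alternatives, with log2 changes of -0.73 to -0.51. The highest adjusted p among them was 0.0401. Mdm4 transcripts are long and poor in GC (median 3490 bases and 43.3%). A processed pseudogene lies on the opposite strand across Mdm4, so the limit on strand holds here too. Among 29 genes for p53 and its regulators, 26 were tested, 2 rose, 1 fell and 23 did not pass, a share near the 13.7% of all tested genes that changed, and the median log2 change was -0.09. The third changed gene was Smyd2, a lysine methyltransferase gene, at 27.0, 27.2 and 26.4 FPKM in LPC replicates 1 to 3 and 20.4, 22.1 and 23.3 FPKM in vehicle replicates 1 to 3 (log2 change 0.28, adjusted p = 0.0462). Smyd2 passed with all libraries in and without LPC replicate 3, and its adjusted p was 0.0552 to 0.223 with any 1 of the other libraries left out and 0.0714 with no filter on low values. Ppp1r13b, which encodes the p53 partner ASPP1, came nearest among those that did not pass (-0.32, adjusted p = 0.0609). It did pass in 3 of the 13 alternatives, among them the fit without LPC replicate 2 (0.045). The count of changed genes in this list was 1 without vehicle replicate 1 or vehicle replicate 2. Cdkn2a, Trp63 and Trp73 were below the filter, with at most 0.31, 0 and 0.09 FPKM.

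Other known p53 targets moved in both directions. Of 32 such genes 30 were tested, 3 rose, 3 fell and 24 did not pass, beside 13.7% of all tested genes that changed (5.82% higher and 7.91% lower), and the median log2 change was 0.01. Perp, which encodes a membrane protein of cell contacts and cell death, had 50.6, 56.1 and 57.6 FPKM in LPC replicates 1 to 3, against 86.0, 79.6 and 89.1 FPKM in vehicle replicates 1 to 3. It was the largest fall of this list (log2 change -0.62, limma adjusted p = 0.00126) and passed in all 13 alternatives. Ddb2, a sensor of ultraviolet damage, also passed in all 13 (-0.47, adjusted p = 0.00805), with 8.11, 9.42 and 7.96 FPKM in LPC replicates 1 to 3 and 11.6, 12.1 and 12.8 FPKM in vehicle replicates 1 to 3. The highest adjusted p for Ddb2 was 0.0448, with no filter on low values. The death receptor gene Fas averaged 30.4 ± 1.70 FPKM with LPC and 39.9 ± 1.19 FPKM with vehicle (-0.38, adjusted p = 0.0117, and 0.0556 without vehicle replicate 1). In the other direction, Dcxr, which encodes a carbonyl reductase, had 20.2, 13.3 and 19.1 FPKM in LPC replicates 1 to 3, against 9.41, 7.62 and 10.98 FPKM in vehicle replicates 1 to 3. That was the largest rise of the list (0.83, adjusted p = 0.00412), and it was lost with no filter on low values (0.0607). Dcxr transcripts are short and rich in GC (median 861 bases and 60.2%). The log2 change was 0.74 after the trends with GC share and length were removed (adjusted p = 0.00469). Sfn, a cell cycle checkpoint gene, rose by 0.40 (adjusted p = 0.0241), and Gtse1, whose product binds microtubules and p53, rose by 0.33 (0.0276). Sfn did not pass without LPC replicate 1 (0.0957), vehicle replicate 2 (0.0785) or vehicle replicate 3 (0.0927). Gtse1 did not pass without LPC replicate 1 (0.0804), vehicle replicate 1 (0.0969), vehicle replicate 2 (0.064) or vehicle replicate 3 (0.109). With no filter on low values the adjusted p was 0.0846 for Sfn and 0.0592 for Gtse1. Pidd1, an adaptor gene of caspase activation, did not pass (0.33, adjusted p = 0.0528). It did pass in 5 of the 13 alternatives, among them the fit without LPC replicate 3 (0.0307). Eda2r and Gdf15 were below the filter, with at most 0.38 and 1.03 FPKM.

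**Figure D3:**
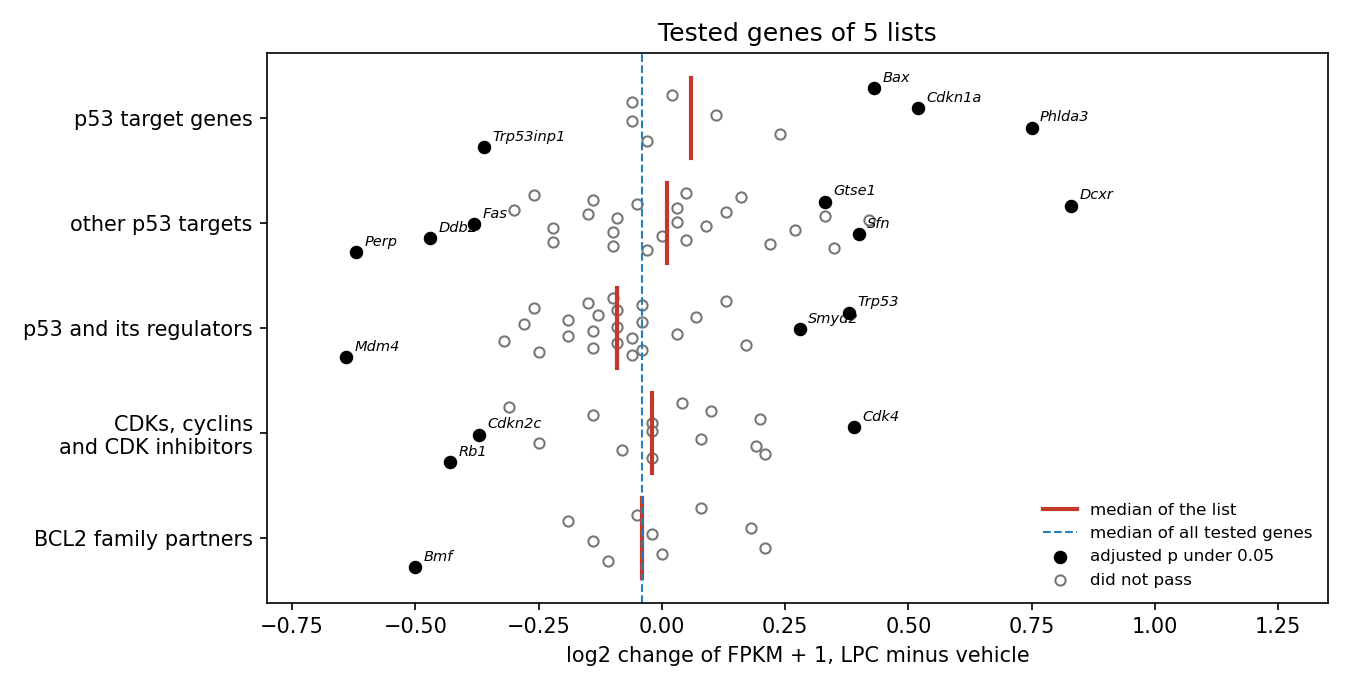
Log2 change of FPKM + 1 (LPC minus vehicle) of each tested gene in 5 lists, spread vertically for legibility, with filled, named points where the adjusted p was under 0.05. Red bars mark list medians (0.06 for the 10 p53 target genes, -0.09 for p53 and its regulators) and the dashed line the median of all tested genes (-0.04).

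Genes around p21 and the kinases it binds were also listed. The 19 genes were cyclin-dependent kinases, cyclins and their inhibitors, and also Rb1, Rbl1, Rbl2, E2f1 and Pcna. They are called the kinase and cyclin genes below. Of these, 16 were tested, 1 rose, 2 fell and 13 did not pass. The share was not far from the 13.7% of all tested genes that changed, and the median log2 change was -0.02. Cdk4, a kinase of the G1 phase, had 286, 264 and 307 FPKM in LPC replicates 1 to 3, against 216, 213 and 223 FPKM in vehicle replicates 1 to 3. All LPC libraries were higher (log2 change 0.39, limma adjusted p = 0.0147), though the adjusted p was 0.078 without vehicle replicate 1 and 0.0752 without vehicle replicate 2. Rb1, the retinoblastoma gene that such kinases switch off, averaged 15.1 ± 1.76 FPKM with LPC and 20.7 ± 2.10 FPKM with vehicle (-0.43, adjusted p = 0.019). Its fall did not pass without LPC replicate 1 (0.071) or vehicle replicate 2 (0.0977), nor with no filter on low values (0.081). Rb1 transcripts are long and poor in GC (median 4656 bases and 41.2%), and its log2 changes over the 13 alternatives were -0.51 to -0.28. Cdkn2c, an inhibitor of Cdk4 and Cdk6, fell by 0.37 on the log2 scale (adjusted p = 0.0301), with 0.109, 0.112, 0.0605 and 0.0915 without LPC replicate 1 and vehicle replicates 1, 2 and 3. It also missed the threshold with quantile normalization (0.0597), median centring (0.0588) and no filter on low values (0.0872). Cdkn1b, the closest relative of Cdkn1a in the list with a tested level, had 21.0, 25.1 and 19.7 FPKM in LPC replicates 1 to 3, against 28.2, 28.6 and 25.4 FPKM in vehicle replicates 1 to 3. Its LPC values were all lower, the reverse of Cdkn1a, but it did not pass (-0.31, adjusted p = 0.0569). Cdkn1b did pass in 2 of the 13 alternatives, among them the fit without LPC replicate 2 (0.0157). The count of changed genes in this list was 1 without LPC replicate 1 or vehicle replicate 1 and 0 without vehicle replicate 2, against 3 with all libraries.

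Among 12 BCL2 family partners of Bax, Bbc3 and Pmaip1, 10 were tested, none rose, 1 fell and 9 did not pass, a share near the 13.7% of all tested genes that changed, and the median log2 change was -0.04. The fall was that of Bmf, which like Bbc3 encodes a protein of the death-promoting BH3-only class. It had 0.85, 0.98 and 0.80 FPKM in LPC replicates 1 to 3, against 1.66, 1.73 and 1.58 FPKM in vehicle replicates 1 to 3 (log2 change -0.50, limma adjusted p = 0.00568). Bmf passed the filter on low values through its vehicle libraries alone, so its place in this count is not independent of its direction. Bcl2l11, the gene of the BH3-only protein Bim, came nearest among those that did not pass (0.21, adjusted p = 0.148), and it passed in 1 of the 13 alternatives.

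**Figure D4:**
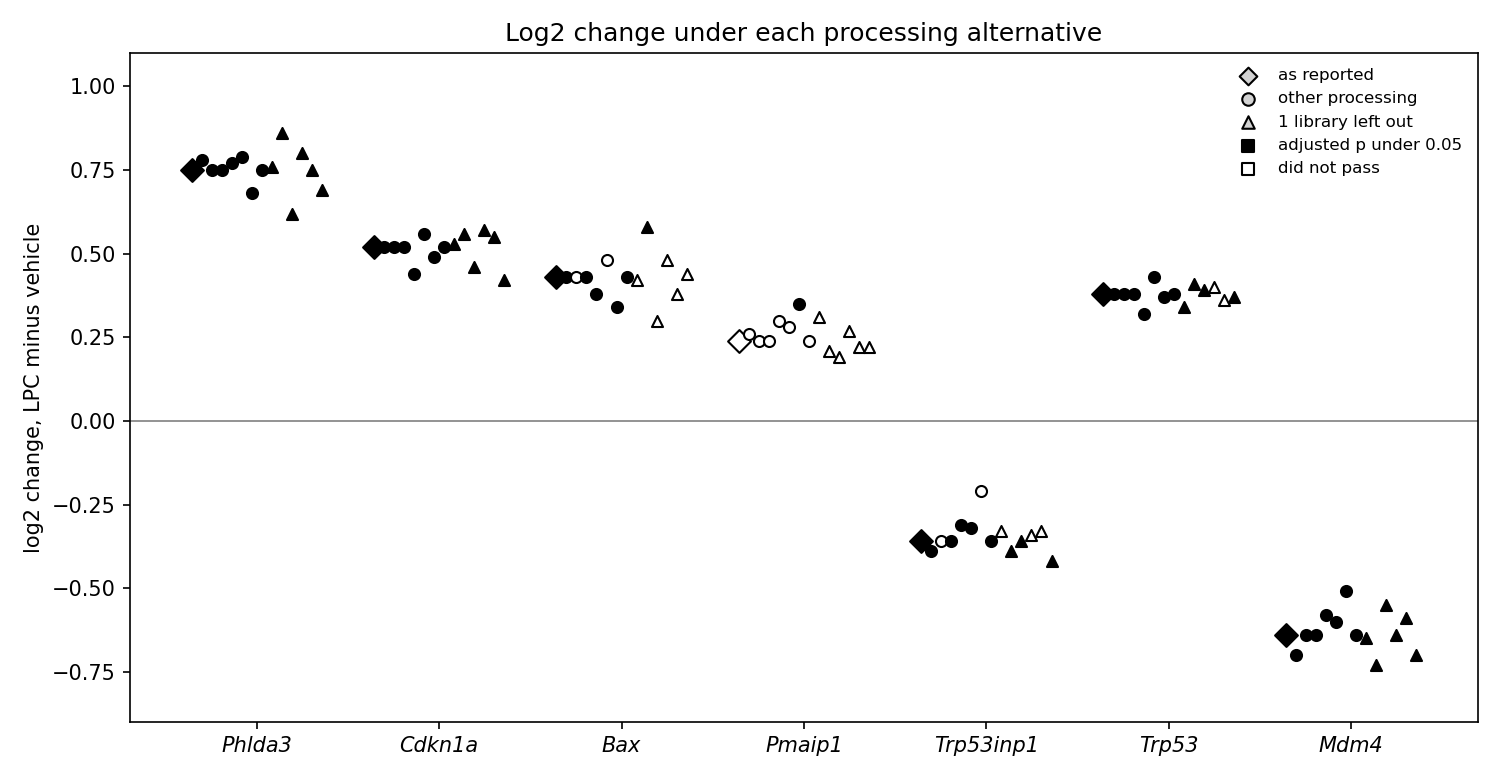
Log2 change (LPC minus vehicle) of 5 p53 target genes, Trp53 and Mdm4 as reported (diamonds), under 7 other ways of processing (circles) and with 1 library left out at a time (triangles), filled where the adjusted p was under 0.05. Phlda3, Cdkn1a and Mdm4 stayed filled throughout, while Bax was open in 7 of 13 alternatives and Trp53inp1 in 5.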

How the data were processed

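Total RNA of 6 libraries was sequenced on a BGISEQ-500, with Bowtie2 alignment to GRCm38 and RSEM estimates of expression, per the labels' protocols. The values the authors deposited are FPKM, rounded to 2 decimals, 1 file per library. The sources used here give no versions or settings. Values were analysed as log2(FPKM + 1) by the trend method of limma 3.58.1 (R 4.3.3), with LPC or vehicle as its sole factor. The 10138 tested genes had 1 FPKM or more in 3 or more libraries. No count test was used, since FPKM are not counts. The test was checked on simulated data with independent noise for each gene. That check does not cover spread shared by the genes of a library. Coordinates and start windows came from RefSeq GRCm38.p6 (99.3% of gene IDs matched), and transcript length, GC share and overlaps from GENCODE M21. Named were all 10 members, Trp53, Mdm4 and Cdkn2a, and in each further list the changed genes and the one nearest to passing. Genes under the filter were named only for the other targets and for p53 and its regulators. Members and lists were chosen with earlier results of these data known.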

Additional observations from a re-analysis of the deposited data

How the results depend on the processing

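The fit was repeated with 13 alternatives. Without 1 library at a time, the count of changed genes was 513 to 2026 over all genes, 2 to 4 of the 10 p53 target genes, 4 to 9 of the other targets, 1 to 4 of p53 and its regulators and 0 to 4 of the kinase and cyclin genes, and it stayed at 1 for the BCL2 family partners. With no filter on low values, 464 genes changed in all (236 higher and 228 lower), 2 of the 10 targets, 3 other targets and 1 of the kinase and cyclin genes. More genes entered that adjustment (16899). With a mean FPKM of 5 or more, 0 BCL2 family partners changed, since Bmf was no longer tested. With GC and length trends removed by splines of 4 degrees of freedom (98.7% of tested genes had both values), 10 other targets, 5 of p53 and its regulators and 2 BCL2 family partners changed, and the cause was not tested.

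Same-numbered LPC and vehicle libraries had correlated deviations from their group means for replicates 2 (r = 0.562) and 3 (0.406) but not for replicate 1 (0.018). Each LPC replicate correlated most with the vehicle library of its own number. Vehicle replicate 1, however, correlated more with LPC replicate 3 (0.065) than with its own number. On the first principal component replicate 1 lay between replicates 2 and 3 in both groups. Its low correlation therefore cannot decide whether the numbers pair the samples. The labels do not tie replicates to separate mice or cultures, so the main fit took no pairing. With the replicate number as a block, 2841 genes changed in all, 4 of the 10 targets, 14 other targets, 7 of p53 and its regulators and 5 kinase and cyclin genes.

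Of the changed genes in the 5 lists, none changed sign under the alternatives run. Results of the alternatives are not given here for the marker genes. The sign of members that did not pass turned for Mdm2 without LPC replicate 2 (-0.07) or vehicle replicate 3 (-0.04), with -0.07 to 0.09 over the libraries left out. It turned for Ccng1 without LPC replicate 1 (0.04), with -0.13 to 0.04 over the libraries left out. Once the GC and length trends were removed it turned for Bbc3 (-0.04), Ccng1 (0.07), Sesn1 (0.03) and Zmat3 (0.11). It also turned with quantile normalization for Sesn1 (0.01) and Zmat3 (0.03), and with median centring for Zmat3 (0.01). Read totals are not given, so no detection limit was set.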
